A study of Homo sapiens with 12 samples.

Results

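The 10 genes described here encode the machinery that carries a cell from G1 into S phase: the D cyclins CCND1 and CCND3, the E cyclins CCNE1 and CCNE2, the kinases CDK4 and CDK6, the retinoblastoma protein RB1, and the transcription factors E2F1, E2F7 and E2F8. They were selected by gene symbol from the 19215 genes of the authors' deposited table, and all 10 had a value in each of its 3 comparisons. C28/I2 is a line of immortalised human chondrocytes, and RNA was taken after 48 h from 12 cultures of it, 3 for each of 4 groups. DMSO cultures were kept in 0.5% DMSO, those of the SDF1 group in 50 nM SDF-1α (the chemokine CXCL12), those of the SDF1_AS4 group in 50 nM SDF-1α with 10 µM astragaloside IV (an Astragalus saponin), and those of the SDF1_SKHS group in 50 nM SDF-1α with the herbal formula SKHS at 1%. The labels name DMSO for the DMSO group alone and no vehicle for either product. A difference in solvent therefore cannot be told apart from the treatment in any comparison.

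D cyclins bind CDK4 and CDK6 in response to growth signals, and these kinases phosphorylate RB1. Phosphorylated RB1 releases activating E2F factors such as E2F1, which switch on the E cyclins and the genes of DNA replication, and cyclin E with CDK2 phosphorylates RB1 further. E2F7 and E2F8 are atypical E2F factors that are themselves induced by E2F and repress the same target genes later in S phase. In cartilage this machinery is active in proliferating chondrocytes and is shut down as they mature.

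Every log2 fold change given for SDF1 over DMSO, SDF1_AS4 over SDF1 and SDF1_SKHS over SDF1 is taken from the authors' deposited table, as are the p-values behind the adjusted p (DESeq2 p-values with Benjamini-Hochberg adjustment over all genes with a value). The number after ± is the standard error on the log2 scale that this p-value implies. A gene rose or fell where its adjusted p was under 0.05. The table holds no value per culture, so the depth and the level in each culture are unknown and the groups could not be inspected for overlap. The libraries of the SDF1 group stand in all 3 comparisons, so a chance deviation of that group moves its own comparison with DMSO in the opposite direction to the comparisons of the products. In bulk RNA, fewer cells in a phase of the cycle and less RNA per cell cannot be told apart. Of 11 chondrocyte markers, SOX9, ACAN, COL11A1 and COL11A2 were measured precisely in all 3 comparisons, here meaning an implied standard error of 0.3 or less, while COL2A1, the defining cartilage collagen, had errors from 1.78 to 2.68. Of 5 fibroblast or dedifferentiation markers, 4 were precise (COL1A1, COL1A2, COL3A1 and VIM).

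Some of these markers moved in the same comparisons as the 10 genes, and their part in the results was not tested. Of all genes tested 34.7% passed with SDF-1α and 32.4% with SKHS, as did 48.8% and 46.7% of precise genes. In each of these comparisons 3 of 10 chondrocyte markers passed, all of them falls and all among the 4 precise chondrocyte markers. Of all genes tested 17.5% fell with SDF-1α and 16.7% fell with SKHS. With SDF-1α 3 of 10 measured chondrocyte markers fell and 0 rose (also 0 at an unadjusted p under 0.05), namely COL11A2 (-1.70 ± 0.19), ACAN (-0.88 ± 0.15) and COL11A1 (-0.68 ± 0.25). Of the 5 fibroblast markers COL1A1 (-0.55 ± 0.09) and COL3A1 (-0.51 ± 0.21) fell and VIM rose (0.41 ± 0.07). With SKHS 3 of 10 chondrocyte markers fell and 0 rose (also 0 unadjusted), namely COL11A2 (-0.91 ± 0.27), ACAN (-0.41 ± 0.15) and SOX9 (-0.40 ± 0.10). COL1A2 (-0.97 ± 0.07), COL3A1 (-0.85 ± 0.26) and COL1A1 (-0.69 ± 0.07) fell with SKHS and VIM rose (0.26 ± 0.06). With astragaloside IV 0 of the 16 markers passed by the deposited DESeq2 p-values, and at an unadjusted p under 0.05 1 was lower, ACAN (-0.30 ± 0.15). Both lists therefore hold collagen genes that fell, and the levels of the markers cannot be judged from comparisons.

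The promoter sequences of E2F1 and E2F7, which fell with SDF-1α and with SKHS, and of CCNE1, which fell with SDF-1α and rose with SKHS, are shown because E2F factors act on such promoters. RefSeq windows of 250 bases before to 50 bases after a transcription start (GRCh38.p14) were matched for 7 of the 10 genes, that is, for all but CCND1, CCNE2 and E2F8. They were searched on both strands for 4 forms of the E2F motif, TTTCCCGC, TTTCGCGC, TTTGCCGC and TTTGGCGC. The windows of CCNE1, CDK6, E2F1 and E2F7 include one whose transcription start lies within 93 bases of the gene's first annotated start. The nearest windows of CCND3, CDK4 and RB1 have transcription starts 1669, 3703 and 172724 bases inside the gene, so the first annotated starts of these genes were not searched. Among the windows searched, only that of E2F1 held a match, and it held 2, which do not overlap. Any match was found in 3.31% of 35116 windows, and at least 2 matches in 0.145%. Capitals mark the matches, and each line runs 5′ to 3′ along the gene.
E2F1 promoter window (chr20:33686336-33686635, minus strand): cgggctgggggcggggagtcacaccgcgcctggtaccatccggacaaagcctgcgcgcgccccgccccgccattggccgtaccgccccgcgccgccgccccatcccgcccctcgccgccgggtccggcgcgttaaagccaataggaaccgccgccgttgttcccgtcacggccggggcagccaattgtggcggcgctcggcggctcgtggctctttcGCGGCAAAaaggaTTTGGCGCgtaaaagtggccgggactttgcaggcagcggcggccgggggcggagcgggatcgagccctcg
E2F7 promoter window (chr12:77065520-77065819, minus strand): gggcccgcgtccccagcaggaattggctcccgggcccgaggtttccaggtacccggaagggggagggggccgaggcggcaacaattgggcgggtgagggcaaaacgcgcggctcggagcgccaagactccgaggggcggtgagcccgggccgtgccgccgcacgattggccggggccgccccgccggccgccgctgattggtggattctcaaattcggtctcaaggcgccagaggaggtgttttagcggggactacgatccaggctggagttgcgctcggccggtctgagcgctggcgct
CCNE1 promoter window (chr19:29811741-29812040, plus strand): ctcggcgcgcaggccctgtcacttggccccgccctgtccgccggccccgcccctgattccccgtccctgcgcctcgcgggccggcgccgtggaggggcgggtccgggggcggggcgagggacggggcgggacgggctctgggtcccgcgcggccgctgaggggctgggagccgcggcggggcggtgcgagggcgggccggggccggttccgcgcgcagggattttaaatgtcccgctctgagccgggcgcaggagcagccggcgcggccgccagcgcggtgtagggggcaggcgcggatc
In the E2F1 window the matches lie at positions -33 to -26 and -20 to -13 from the start, the former on the opposite strand. The absence of these exact letters from the E2F7 and CCNE1 windows does not show that E2F factors fail to bind there or elsewhere.

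Under SDF-1α alone the E2F genes were lower and the upstream kinase CDK6 and RB1 were higher. For SDF1 over DMSO the authors' deposited table put 7 of the 10 genes past the threshold, with 2 rising and 5 falling. Over all 18162 genes tested 34.7% passed, 17.2% higher and 17.5% lower. Among precisely measured genes, as all 10 were in this comparison, 48.8% passed. E2F8 had the largest change of the 10, a fall of 0.83 ± 0.13 (1.77-fold lower, adjusted p = 1.88e-09). E2F1, the activator that RB1 restrains, fell by 0.59 ± 0.10 (adjusted p = 1.55e-07), and E2F7 fell by 0.47 ± 0.13 (adjusted p = 0.00107). The E cyclin CCNE1 fell by 0.44 ± 0.13 (1.36-fold lower, adjusted p = 0.00325). CCND3, the D cyclin best known from lymphoid cells, fell by 0.30 ± 0.09 (adjusted p = 0.00633). CDK6 rose by 0.46 ± 0.09 (1.37-fold, adjusted p = 2.79e-06) and RB1 by 0.44 ± 0.12 (1.36-fold, adjusted p = 0.000836). CCND1, the main D cyclin of fibroblast-like cells, stood at 0.14 ± 0.08 with a 95% interval from -0.01 to 0.29. CDK4 stood at 0.20 ± 0.09 (adjusted p = 0.0628) and CCNE2 at -0.26 ± 0.17 (95% interval from -0.59 to 0.08). Within each pair of related genes, then, 1 member passed and the other did not for CDK6 and CDK4, for CCNE1 and CCNE2, and for CCND3 and CCND1. These within-pair differences were not tested.

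**Figure D1:**
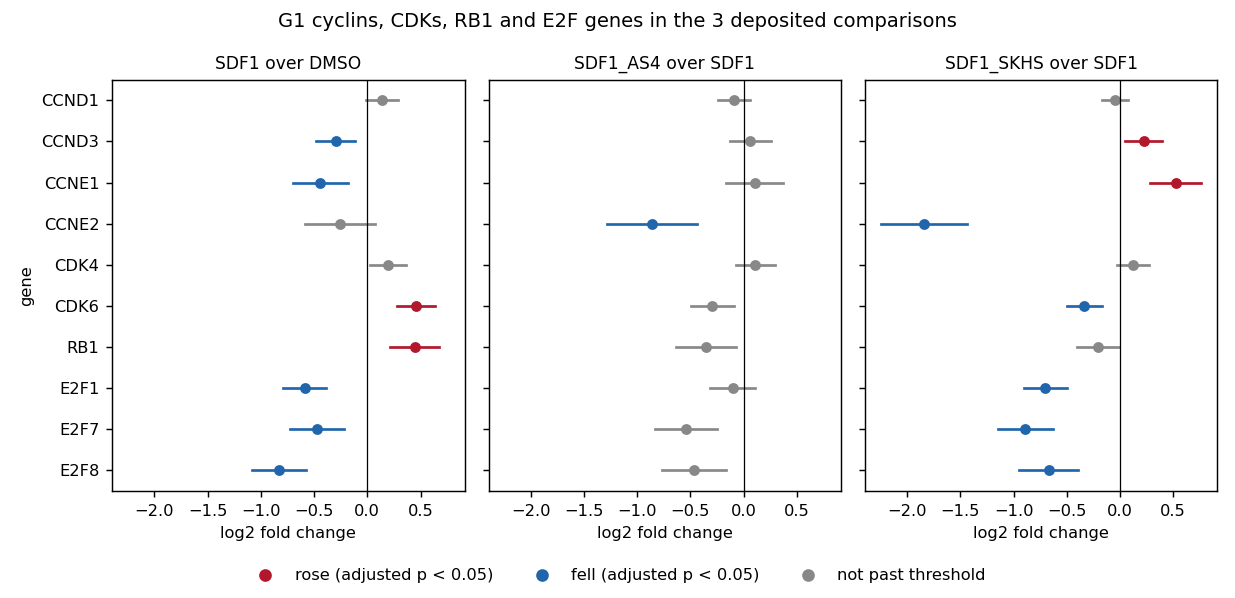
Log2 fold change (horizontal axis) of the 10 genes (vertical axis) in the 3 deposited comparisons, with bars for the 95% interval from the implied standard error and colours for the call at adjusted p under 0.05. The 3 E2F genes lie left of 0 in every panel, CCNE2 reaches -1.84 in SDF1_SKHS over SDF1, and CCND1 and CDK4 pass in no panel.

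Other members of the same families moved with SDF-1α as follows. Of the 8 genes E2F1 to E2F8, which include E2F1, E2F7 and E2F8 given above, 6 fell and 0 rose. This share of 75% stands beside 34.7% of all genes and 48.8% of precise genes. E2F2, an activator like E2F1, fell by 0.69 ± 0.14 (adjusted p = 1.07e-05). The activator E2F3 fell by 0.31 ± 0.10 and E2F4, which works with the pocket proteins p107 and p130 as a repressor, by 0.26 ± 0.10. E2F5 (0.48 ± 0.26) and E2F6 (-0.19 ± 0.13) did not pass. At an unadjusted p under 0.05 the count of higher E2F genes was also 0. The pocket proteins diverged, since RB1 rose while RBL1, which encodes p107, fell by 0.48 ± 0.11 (adjusted p = 0.000159), and RBL2, which encodes p130, stood at -0.21 ± 0.11. TFDP2, a DP partner with which E2F1 and the other classical E2F factors bind DNA, though not the atypical E2F7 and E2F8, rose by 0.45 ± 0.10, and TFDP1 stood at 0.10 ± 0.08.

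Of 7 CDK inhibitor genes, 2 rose with SDF-1α and 0 fell, at an unadjusted p under 0.05 also 0. The share past the threshold, 28.6%, was below the 34.7% of all genes and the 48.8% of precise genes. CDKN1A, which encodes the p53 target p21, rose by 0.82 ± 0.08 (1.76-fold, adjusted p = 1.7e-21). CDKN2B, whose product p15 blocks CDK4 and CDK6, rose by 0.60 ± 0.10 (adjusted p = 8.15e-08). Of 11 other cyclin, CDK and activator genes, 4 rose and 2 fell, a share of 54.5%. CDK3, a kinase linked to exit from quiescence, fell by 1.44 ± 0.20 (2.72-fold lower). MNAT1, the assembly factor of the CDK-activating kinase, rose by 0.51 ± 0.12, and the S-phase cyclin CCNA2 by 0.33 ± 0.08. CDC25A, the phosphatase that activates CDK2, fell by 0.44 ± 0.13, and CDK2 itself stood at -0.03 ± 0.08.

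Of 50 G1/S genes known to be under E2F control, 25 fell and 4 rose in SDF1 over DMSO, with a median log2 fold change of -0.23 against 0.04 over all precise genes. Their share past the threshold was 58%, against 48.8% of precise genes. The falls of smallest p were those of POLE, the catalytic subunit of the leading-strand polymerase (-1.04 ± 0.08), HELLS, a chromatin remodeller (-0.80 ± 0.10), and the licensing factor CDT1 (-0.71 ± 0.10). The replicative helicase genes MCM2 to MCM7 did not move as a block, with 4 of 6 lower and 1 higher, MCM6 (0.30 ± 0.09). Promoter windows were matched for 41 of the 50 genes. A form of the E2F motif was found in 24 of these 41 genes (58.5%), against 3.99% of all 27305 genes with a window, which is a description of the list and not a test. The sites of the named genes that held a match are shown with 10 bases on each side.
POLE site (chr12:132687343-132687370, minus strand): gggtgggagcGCGCCAAAtttctcccct
HELLS site (chr10:94545702-94545729, plus strand): accgcaagctGCGCCAAAtctcgcgcag
HELLS site (chr10:94545770-94545797, plus strand): atgacaggatTTTCCCGCgaaggagaag
CDT1 site (chr16:88803744-88803771, plus strand): cagggcgcccGCGGGAAAtttggcggga
LIG1 site (chr19:48170441-48170468, minus strand): cttcacccctTTTCCCGCcctcctccca
LIG1, named here for its fall with SKHS described below, encodes DNA ligase I. RRM2 and TCF19, named for the same comparison, had windows without a match.

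Around these genes, a list of ubiquitin ligase parts and other regulators of protein degradation had 8 of 16 genes higher and 3 lower with SDF-1α, with a median of 0.25. This is a share of 68.8%, against 48.8% of precise genes. The genes that rose include a kinase, GSK3B, and a deubiquitinase, USP2 (0.67 ± 0.20), so the count does not give a direction of degradation. SKP1, the adaptor of SCF ligases, rose by 0.85 ± 0.10, GSK3B, the kinase that marks cyclin D1 for degradation, by 0.54 ± 0.09, and the scaffold CUL1 by 0.31 ± 0.08. SKP2, the F-box protein that targets p27, fell by 0.34 ± 0.13. Of 12 chromatin regulators that include partners of the pocket proteins, 7 rose and 2 fell, or 75% against 48.8% of precise genes. KDM5A, a demethylase that binds RB1, rose by 0.35 ± 0.10, CBX1, a heterochromatin protein, by 0.38 ± 0.09, and PHF1, a Polycomb-associated protein, fell by 0.74 ± 0.11. Among 8 genes of the MuvB core and its partners, MYBL2, the B-MYB factor, was the only gene past the threshold (0.26 ± 0.10, adjusted p = 0.0238), and it did not pass once values were centred on the median of precise genes. Of 18 transcription factors and cofactors linked to growth signals, 6 rose and 3 fell, which is 50% against 48.8% of precise genes. This list mixes factors that favour and oppose growth, so its counts have no single direction. EGR1 (1.17 ± 0.14), ETS1 (0.68 ± 0.09) and the beta-catenin gene CTNNB1 (0.37 ± 0.08) rose, and MYC stood at -0.01 ± 0.08.

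With astragaloside IV added, CCNE2 was the only one of the 10 genes past the threshold. In the authors' deposited table CCNE2 fell by 0.86 ± 0.22 in SDF1_AS4 over SDF1 (1.81-fold lower, adjusted p = 0.0433). Of 18133 genes tested 0.358% passed, 0.199% higher and 0.16% lower, and 0.511% of precise genes did. Among 11946 precise genes, 2 had a lower log2 fold change than CCNE2. CCNE1, the other E cyclin, stood at 0.10 ± 0.14. E2F7 stood just outside the threshold at -0.54 ± 0.15 (adjusted p = 0.0522), and it passed with an adjusted p of 0.0393 when testing was limited to errors of 0.5 or less. E2F8 stood at -0.47 ± 0.15 (adjusted p = 0.0868), RB1 at -0.36 ± 0.14 (adjusted p = 0.175) and CDK6 at -0.29 ± 0.10 (adjusted p = 0.117). At an unadjusted p under 0.05, 5 of the 10 genes were lower, those of lowest GC content (given below), and 0 were higher. At that threshold 16.4% of all genes passed, 7.85% higher and 8.53% lower, as did 24.1% of precise genes, 11.4% higher and 12.7% lower. E2F1 (-0.10 ± 0.11), CCND1 (-0.09 ± 0.08), CCND3 (0.06 ± 0.10) and CDK4 (0.11 ± 0.09) had 95% intervals that included 0.

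The precision of this comparison sets what could be seen. A change had to reach 3.75 implied standard errors to pass, which is 0.29 on the log2 scale for CCND1, 0.41 for E2F1 and 0.81 for CCNE2. Fold changes with astragaloside IV also followed transcript length and GC content over 11893 precisely measured annotated genes, with a Spearman's rho of -0.535 for length and 0.588 for GC content across genes, which are not independent replicates. The longest coding transcript of CCNE2 has 3330 nucleotides and a GC content of 36.9%. The other genes lower at an unadjusted p under 0.05, RB1, CDK6, E2F7 and E2F8, have 37.3%, 39.5%, 43.1% and 45.9%. The genes not lower, CCND1, CCNE1, CDK4, CCND3 and E2F1, have 50.3%, 52.9%, 53.6%, 56.2% and 62.5%. The split therefore ran along GC content, and whether it is separate from that trend was not tested. With both trends removed CCNE2 stood at -0.72 (adjusted p = 0.179) and no longer passed, and E2F7 did not pass either.

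Over the families and lists around the 10 genes, 1 of 132 genes passed with astragaloside IV, EGR1, which fell by 0.92 ± 0.13. At an unadjusted p under 0.05, 32 of the 132 were lower and 8 higher, beside the 12.7% and 11.4% of precise genes given above. The 50 G1/S genes had a median of -0.11 with 39 of 50 values below 0, against a median of -0.01 over all precise genes. None of the 50 passed by the deposited DESeq2 p-values, and at an unadjusted p under 0.05 15 were lower and 1 was higher, to be read against the same shares of precise genes. Whether the lean of these lists to lower values is separate from the length and GC trends was not tested. For the CDK inhibitors the count at an unadjusted p under 0.05 was 0 in either direction, and CDKN1A stood at -0.02 ± 0.09 (95% interval from -0.19 to 0.16).

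With SKHS the E cyclins separated and the E2F genes were lower. By the authors' deposited table, 7 of the 10 genes passed in SDF1_SKHS over SDF1, of which 2 rose and 5 fell. Of 18251 genes tested 32.4% passed, 15.8% higher and 16.7% lower, and 46.7% of precise genes did. CCNE2 fell by 1.84 ± 0.21 (3.59-fold lower, adjusted p = 8.39e-18), and only 33 of 12028 precisely measured genes had a lower value. CCNE1 rose by 0.52 ± 0.12 (1.44-fold, adjusted p = 0.000129). The 95% intervals of the E cyclins, from -2.25 to -1.44 for CCNE2 and from 0.28 to 0.76 for CCNE1, lie on opposite sides of 0. E2F7 fell by 0.89 ± 0.13 (1.86-fold lower, adjusted p = 2.32e-10), E2F1 by 0.70 ± 0.10 (1.63-fold lower, adjusted p = 1.7e-10) and E2F8 by 0.67 ± 0.14 (1.59-fold lower, adjusted p = 2.06e-05). CDK6 fell by 0.34 ± 0.08 (adjusted p = 0.000285), while CDK4 stood at 0.12 ± 0.08. CCND3 rose by 0.22 ± 0.09 (adjusted p = 0.0415). CCND1 stood at -0.05 ± 0.06 with a 95% interval from -0.17 to 0.07, the narrowest interval of the 10 genes, and RB1 at -0.21 ± 0.10 (adjusted p = 0.0968).

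**Figure D2:**
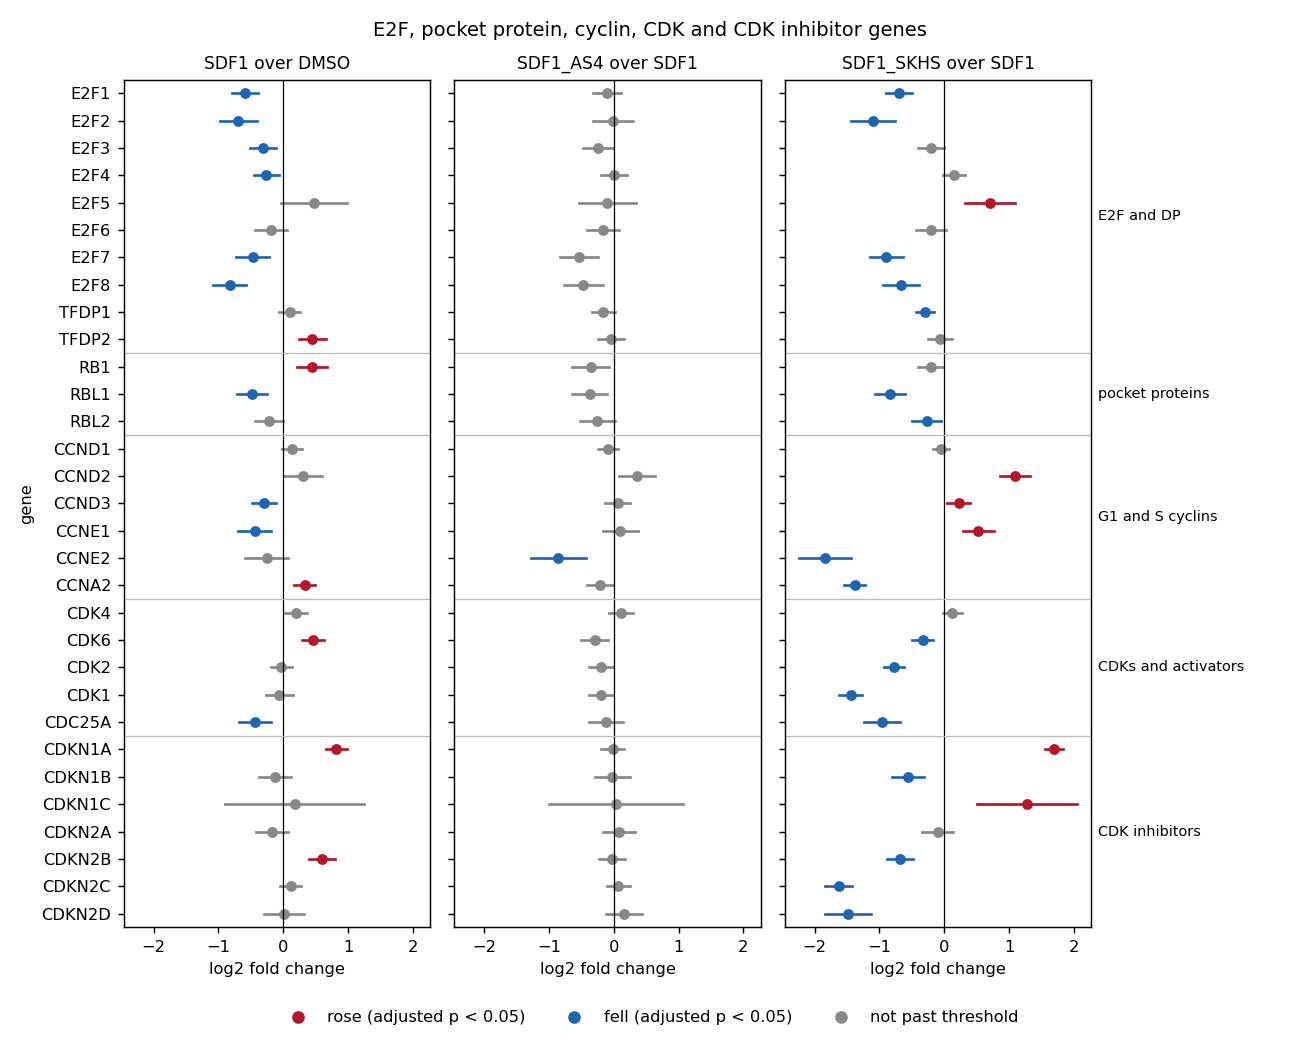
Log2 fold change (horizontal axis) of E2F, DP, pocket protein, cyclin, CDK and CDK inhibitor genes (vertical axis) in the 3 deposited comparisons, with 95% intervals from the implied standard error and colours for the call. With SKHS, CCND2, CCNE1 and CDKN1A lie right of 0 while CCNE2, CCNA2, CDK1, CDKN2C and CDKN2D lie left of -1, and with astragaloside IV CCNE2 alone is coloured.

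Other members of these families also moved with SKHS. Among E2F1 to E2F8, which include E2F1, E2F7 and E2F8 given above, 4 fell and 1 rose. This share of 62.5% stands beside 32.4% of all genes and 46.7% of precise genes. E2F2 fell by 1.10 ± 0.17 (2.14-fold lower, adjusted p = 2.89e-09), and E2F5, a repressor partner of p130, rose by 0.70 ± 0.20. E2F3, E2F4 and E2F6 did not pass. CCND2, the D cyclin that is not among the 10 genes, rose by 1.10 ± 0.12 (2.14-fold, adjusted p = 1.78e-18). RBL1 fell by 0.83 ± 0.12 and RBL2 by 0.27 ± 0.11. The DP partner TFDP1 fell by 0.30 ± 0.07. Among the other kinases and cyclins, CCNA2 fell by 1.39 ± 0.08 (2.61-fold lower), the mitotic kinase CDK1 by 1.45 ± 0.09 (2.72-fold lower), CDK2, the partner of cyclin E, by 0.77 ± 0.08 and CDC25A by 0.97 ± 0.14, while MNAT1 rose by 0.40 ± 0.10.

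The CDK inhibitors moved in opposite directions with SKHS, with 2 of 7 higher and 4 lower. The share past the threshold was 85.7%, beside 32.4% of all genes and 46.7% of precise genes. CDKN1A rose by 1.69 ± 0.07 (3.23-fold, adjusted p = 2.1e-129). CDKN1C, which encodes p57, rose by 1.28 ± 0.39. The INK4 genes CDKN2C, for p18 (-1.63 ± 0.11, 3.10-fold lower), CDKN2D, for p19 (-1.48 ± 0.18), and CDKN2B (-0.68 ± 0.10) fell, as did CDKN1B, for p27 (-0.56 ± 0.13). CDKN2A, whose transcripts encode p16 and ARF and were counted together here, stood at -0.10 ± 0.12.

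All 50 G1/S genes fell with SKHS, with values from -1.87 to -0.25 and a median of -0.79 against 0.01 over all precise genes. LIG1 (-1.87 ± 0.10), RRM2, the ribonucleotide reductase subunit (-1.51 ± 0.08), and TCF19 (-1.32 ± 0.08) had the smallest p among them. All of MCM2 to MCM7 fell, from -1.20 to -0.38. Of the MuvB core and its partners 5 of 8 fell and 0 rose, also 0 higher at an unadjusted p under 0.05. The share past the threshold was 62.5%, against 46.7% of precise genes. The falls include those of MYBL2 (-0.81 ± 0.09), FOXM1, the driver of mitotic genes (-0.67 ± 0.07), and LIN9 (-0.99 ± 0.18). Of the 16 ubiquitin ligase parts and other regulators of degradation 8 fell and 1 rose, or 56.2% against 46.7% of precise genes. The falls of smallest p were those of CCNF, the cyclin F that targets E2F activators (-1.66 ± 0.09), and the CDK-binding cofactors CKS2 (-1.26 ± 0.09) and CKS1B (1.99-fold lower). Of the 12 chromatin regulators 7 fell and 0 rose, at an unadjusted p under 0.05 also 0. Their share was 58.3%, against 46.7% of precise genes. Those that fell include the histone methyltransferase SUV39H1 (-1.20 ± 0.12), CBX1 (-0.63 ± 0.08) and the remodelling ATPase SMARCA2 (-0.63 ± 0.10). Of the 18 factors linked to growth signals, which favour or oppose growth, 3 rose and 5 fell, or 44.4% against 46.7% of precise genes. FOS (-1.71 ± 0.17), EGR1 (-1.36 ± 0.12) and MYC (-0.61 ± 0.08) fell, and KLF4, an antiproliferative factor in epithelia, rose by 1.84 ± 0.19.

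**Figure D3:**
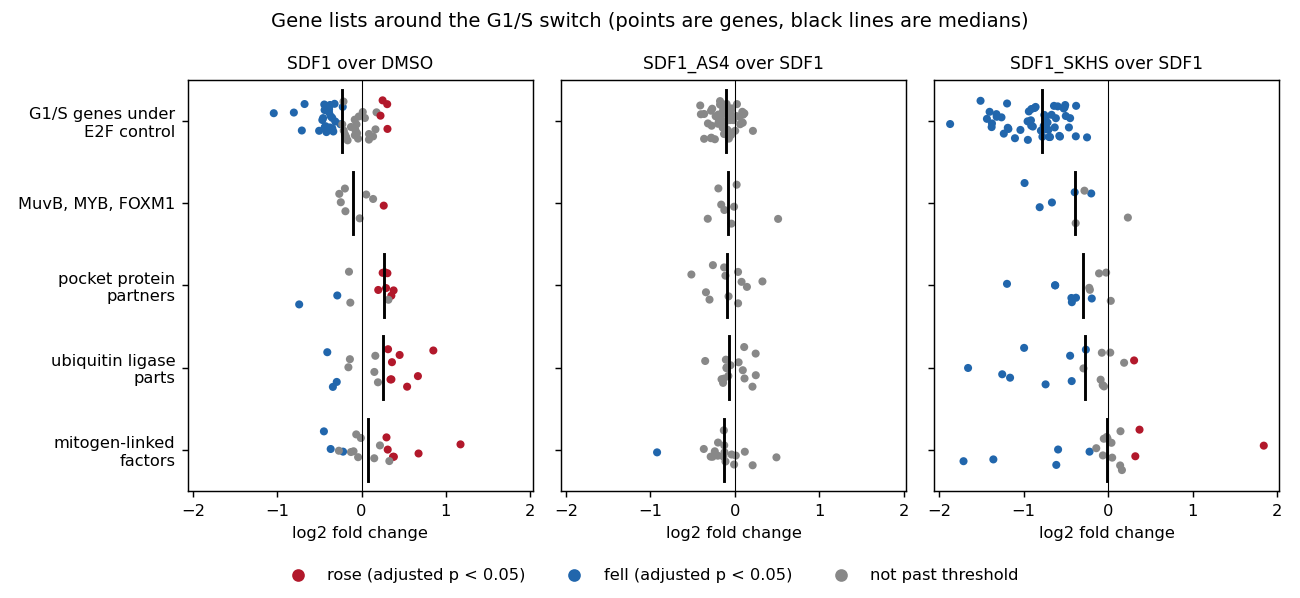
Log2 fold change (horizontal axis) of every gene in 5 lists around the G1/S switch (vertical axis), with points coloured by call and black lines at the list medians. The 50 G1/S genes all lie left of 0 with SKHS (median -0.79) and spread to both sides with SDF-1α (median -0.23) and with astragaloside IV (median -0.11).

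The products were compared with each other through their shared SDF1 group, with a standard error that adds both implied variances and is an upper bound. Of the 10 genes, 2 were lower and 0 higher in SDF1_SKHS over SDF1_AS4. Over 17927 genes 18.9% passed, 8.5% higher and 10.4% lower, as did 28.9% of precise genes, which include all 10. CCNE2 was lower with SKHS by a log2 difference of -0.99 ± 0.30 (1.98-fold, adjusted p = 0.00768), and E2F1 by -0.60 ± 0.15 (1.52-fold, adjusted p = 0.000762). At an unadjusted p under 0.05 CCNE1 was higher, with 0.42 ± 0.18 (adjusted p = 0.0971), and it passed when an assumed shared variance was taken out (adjusted p = 0.00938) or the length and GC trends were removed (adjusted p = 0.0443). E2F7 differed by -0.35 ± 0.20 (95% interval from -0.74 to 0.04) and E2F8 by -0.20 ± 0.21 (from -0.61 to 0.21). CDK6 differed by -0.04 ± 0.13 (from -0.30 to 0.22) and CDK4 by 0.01 ± 0.12 (from -0.22 to 0.25). CDKN1A was higher with SKHS than with astragaloside IV by 1.71 ± 0.11, and CCND2 by 0.73 ± 0.19 (adjusted p = 0.000897). Of the 50 G1/S genes 43 were lower and 0 higher, at an unadjusted p under 0.05 also 0 higher.

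Adding the deposited values gave each group's level relative to DMSO. In SDF1_AS4 over DMSO 4 of the 10 genes were lower and 0 higher. Of 17895 genes 22.4% passed, 10.8% higher and 11.6% lower, as did 34.3% of precise genes, which include all 10. The 4 lower genes were E2F8 (-1.30 ± 0.20), CCNE2 (-1.11 ± 0.27), E2F7 (-1.01 ± 0.20) and E2F1 (-0.69 ± 0.15). CDK4 was higher at an unadjusted p under 0.05 (0.30 ± 0.13, adjusted p = 0.0651), and it passed when an assumed shared variance was taken out (adjusted p = 0.00417). So did CCNE1, which was then lower (-0.34, adjusted p = 0.039). In SDF1_SKHS over DMSO the same 4 genes were lower and CDK4 was higher. Of 17936 genes 37.2% passed, 18.1% higher and 19.1% lower, as did 54.3% of precise genes, which include all 10. The values were -2.10 ± 0.27 for CCNE2 (4.28-fold lower), -1.37 ± 0.18 for E2F7 (2.58-fold lower), -1.29 ± 0.15 for E2F1 (2.44-fold lower) and 0.32 ± 0.11 for CDK4 (adjusted p = 0.0169). E2F8 was 2.83-fold lower, with a 95% interval from -1.88 to -1.12 on the log2 scale. Removing the trends on transcript length and GC content left CDK4 at 0.22 (adjusted p = 0.121), short of the threshold. CCNE1 stood at 0.08 ± 0.18 with SKHS and at -0.34 ± 0.19 with astragaloside IV, and CCND3 at -0.08 ± 0.13 and -0.23 ± 0.14. CDK6, higher with SDF-1α alone, stood at 0.12 ± 0.12 with SKHS and 0.17 ± 0.14 with astragaloside IV, and RB1 at 0.23 ± 0.15 and 0.09 ± 0.19. CCND1 stayed between 0.05 and 0.14 in all 3 treated groups, and no interval excluded 0. CDKN1A reached 2.51 ± 0.11 over DMSO with SKHS and 0.80 ± 0.12 with astragaloside IV.

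**Figure D4:**
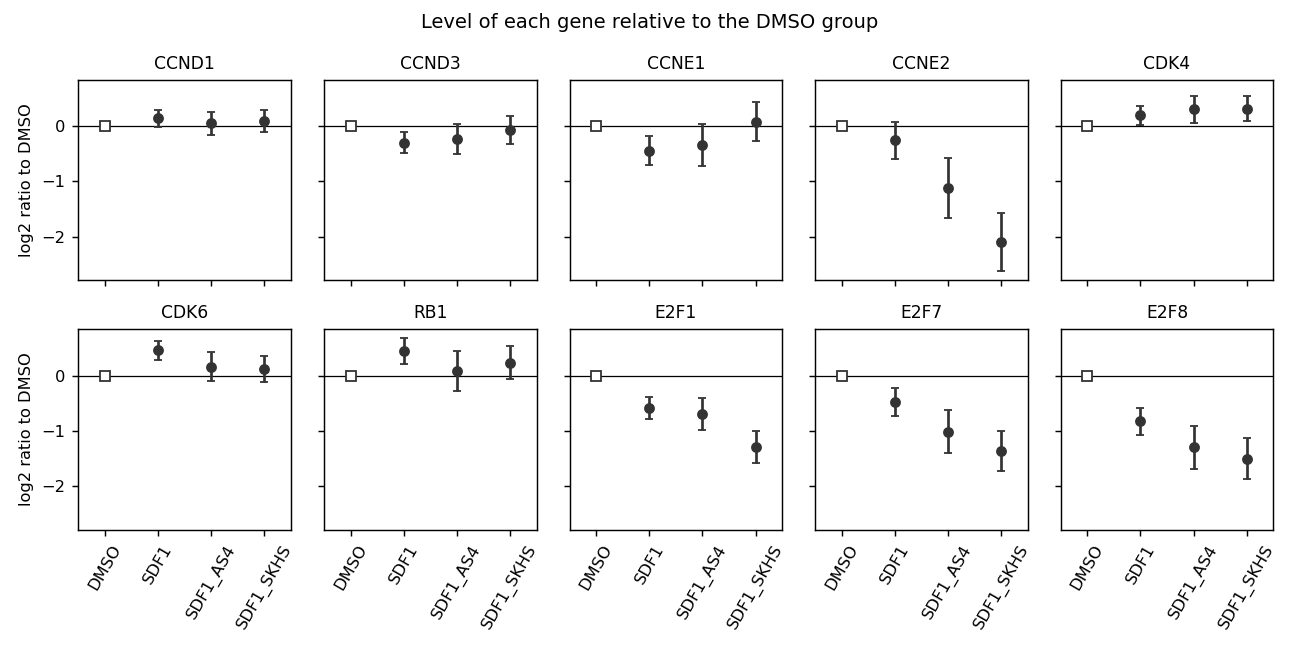
Log2 ratio to the DMSO group (vertical axis) for each of the 10 genes in the 4 groups (horizontal axis), with the DMSO group fixed at 0 as an open square and 95% intervals as bars. Values for the product groups are sums of deposited comparisons with an upper-bound error. CCNE2, E2F1, E2F7 and E2F8 have their lowest value in the SDF1_SKHS group, between -2.10 and -1.29, while CCND1 stays within 0.14 of DMSO.

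The genes lie at separate loci, and some share exon bases with a neighbour on the opposite strand (GENCODE 29, GRCh38). Whether reads were counted by strand is not given in the sources used here, so reads of such neighbours cannot be told apart. CCNE2 (chromosome 8, 94879770 to 94896678) shares exon bases with an unnamed transcript and with INTS8, an Integrator subunit gene, which stood at -0.08 ± 0.09 for SDF1 over DMSO and -0.03 ± 0.10 for SDF1_AS4 over SDF1 and rose by 0.28 ± 0.08 for SDF1_SKHS over SDF1. CCND1 (chromosome 11, 69641087 to 69654474) overlaps LTO1, which fell by 0.53 ± 0.15 with SDF-1α and rose by 0.36 ± 0.14 with SKHS. CDK4 (chromosome 12, 57747727 to 57756013) overlaps TSPAN31, which rose by 0.40 ± 0.11 with SKHS. E2F1 (chromosome 20, 33675683 to 33686404), E2F7 (chromosome 12, 77021247 to 77065580), CCNE1 (chromosome 19, 29811898 to 29824308), CDK6 and RB1 share exon bases with no annotated gene. E2F8 (chromosome 11, 19224063 to 19241620) and CCND3 overlap unnamed transcripts only. The longest coding transcripts range from 2043 nucleotides for CCNE1 to 11612 for CDK6, and GC content from 36.9% for CCNE2 to 62.5% for E2F1.

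E2F8 had the smallest adjusted p of the 10 genes for SDF1 over DMSO, and its neighbours by expression pattern were sought over the 3 deposited comparisons. Among 11767 other genes measured precisely in all 3, the nearest by Euclidean distance of log2 fold changes were SCML1 (distance 0.10), SH3TC2 (0.11) and RASA2 (0.12). These distances are smaller than the implied standard errors of E2F8 itself (0.13, 0.15 and 0.14), so the order of near genes is not resolved. The 3 comparisons also share the SDF1 libraries. SCML1 had values of -0.80, -0.41 and -0.59 for SDF1 over DMSO, SDF1_AS4 over SDF1 and SDF1_SKHS over SDF1, beside -0.83, -0.47 and -0.67 for E2F8.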

How the data were processed

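RNA of 12 cultures was sequenced with a BGI kit, per the labels' protocols. The submitters' processing notes list Bowtie2 2.2.5, RSEM 1.2.12, DESeq2 1.4.5 and the build GRCh38.p13, without roles or order. The authors deposited 1 table of 19215 genes, which per the file headers gives a log2 fold change, a DESeq2 p-value and a q-value for each of 3 comparisons, and counts and depth are unknown. The headers' groups were matched to the sample titles. The deposited log2 fold changes were read as treated over reference. Genes with no value in 1 comparison are taken as undetected in both its groups, and all 1576 of their values elsewhere had the sign this reading needs. The deposited q-value equals a Benjamini-Hochberg adjustment of the p-value (largest difference 1.29e-14) and is called adjusted p.

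The implied standard error is the size of the log2 fold change over the normal quantile of the p-value, which assumes a Wald test. The 3 further comparisons were sums or differences of deposited values with both variances added, tested with a normal distribution and adjusted over all genes. The replicates are separate samples by label only, so p-values measure the spread between these samples of 1 line. Length and GC content came from the longest coding transcript in GENCODE 29 (97.4% of symbols matched), and their trends were removed with splines of 5 degrees of freedom fitted on precise genes (implied standard error of 0.3 or less). The 10 genes and the 8 lists were chosen with earlier results of these data known. Named were all 10 genes and, per list and comparison, the 3 genes of smallest adjusted p past 0.05. Other list genes, such as E2F3, E2F5, RBL2, SKP2, MYC, CCND2 and CDKN1B, were chosen after their values were seen. No test of a list was made. Scripts were tested on simulated data. Python 3.11.15, numpy 2.4.6, scipy 1.17.1, pandas 2.3.3 and matplotlib 3.10.9 were used. Alternatives are given in the closing section.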

Additional observations from a re-analysis of the deposited data

Results flagged for a closer look

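The effects of the products over SDF1 differed for 2 of the 10 genes by a direct test of the difference (normal test with both implied variances added, Benjamini-Hochberg adjusted over 17927 genes). For CCNE2 the difference was -0.99 on the log2 scale (adjusted p = 0.00768), from -1.84 with SKHS and -0.86 with astragaloside IV. For E2F1 it was -0.60 (adjusted p = 0.000762), from -0.70 with SKHS and -0.10 with astragaloside IV. Neither difference passed when p came from a t distribution (4 degrees of freedom) (adjusted p = 0.243 and 0.196).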

How the results depend on the processing

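When p came from a t distribution (4 degrees of freedom) and not from the normal, the genes past the threshold numbered 1 instead of 7 for SDF1 over DMSO (E2F8), 0 instead of 1 for SDF1_AS4 over SDF1, 3 instead of 7 for SDF1_SKHS over SDF1 (CCNE2, E2F1 and E2F7), 0 instead of 2 for SDF1_SKHS over SDF1_AS4, 0 instead of 4 for SDF1_AS4 over DMSO and 4 instead of 5 for SDF1_SKHS over DMSO. Heavier tails can only lower such counts, and at an unadjusted p under 0.05 this distribution gave 7, 4, 6, 2, 4 and 5 genes. For SDF1_AS4 over SDF1 the count was also 0 at an adjusted p of 0.01 and 0 once trends on length and GC were taken out, and it was 2 with testing limited to errors of 0.5 or less. Of the list genes, 2 instead of 1 passed there after centring on the precise genes. The split of all changed genes in that comparison was 36 higher and 29 lower as deposited, 52 and 26 after centring, and 23 and 8 with the trends removed. With the trends removed CCND3 reversed to -0.0504 in SDF1_AS4 over SDF1 and CCNE1 to -0.0353 in SDF1_SKHS over DMSO, and neither passed before or after. Of 330 values of single genes under an alternative, 296 kept direction and side of the threshold, 23 lost the call, 9 gained it and 2 changed sign. No paired analysis was possible because the table holds no values per sample, and for the same reason leaving out each replicate was not run. Depth is unknown, so limits from counts could not be given.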
